A study of Mus musculus with 8 samples.

Results

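The genes described here are the better expressed antisense RNA genes of BaF3 cells that carry Jak2 V617F: the genes typed as antisense RNA in the gene count table whose raw counts sum to 300 or more over the 8 libraries. The rule took 150 of the 400 antisense genes among 13588 genes in the table, and they hold 84.4% of all antisense counts. BaF3 is a mouse cell line derived from pro-B cells, and Jak2 V617F is the activating kinase mutation of myeloproliferative neoplasms. Poly(A)-selected RNA was sequenced from 4 libraries of cells with a non-targeting hairpin (shNT), 2 with the hairpin sh1Ybx1 and 2 with the hairpin sh2Ybx1, which target the cold-shock RNA-binding protein Ybx1. All 8 libraries share the cell line, the Jak2 mutation and a short hairpin; no label says if a replicate was its own culture, and p-values then reflect the spread among libraries, which may be technical.

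Antisense RNA genes are transcribed from the strand opposite another gene. Some start head to head with the neighbouring gene, and others begin inside it or at its far end. Many such RNAs are kept at a low level by the nuclear exosome, a complex that degrades short-lived nuclear RNA, and a few, such as Kcnq1ot1, silence genes on the same chromosome. Ybx1 binds RNA and single-stranded DNA, and was named for the Y-box, a promoter element with a reversed CCAAT motif.

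The members' raw sums ran from 302 to 29494 with a median of 664.5, and no member was at 0 counts in any library. Just inside the threshold lay Gm15792 with 302, Gm14091 with 304 and Gm11963 with 305 counts. Just outside lay Gm28529 with 297, and Gm27003 and 9330020H09Rik with 298 each. Since a sum can be reached through either group alone, the counts were also split: 117 members had at least 150 counts in the 4 shNT libraries and in the 4 knockdown libraries, 21 had fewer than 150 in shNT and 12 had fewer in the knockdown libraries. The 5 highest members hold 34.5% of the members' counts and the 20 highest hold 56.7%.

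In the GENCODE vM21 annotation (build GRCm38), 148 of the 150 were found. They lie on 20 chromosomes, 20 of them on chromosome 11. Their exonic length had a median of 1709.5 bases, 131 have 2 or more exons and 17 have a single exon. An opposite-strand partner gene of the count table was found for 130, and 127 of these partners are protein-coding. Exons of 92 members overlap exons of their partner, 25 lie in its introns or otherwise overlap without a shared exonic base, 13 start head to head with it within 2000 bases, and 18 have no such partner. No strand setting of the counting is stated in what was available, so where exons overlap, reads of an antisense gene and of its partner may not be told apart.

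Start regions are shown for members whose counts mark the ends of the range described below, where the RefSeq start lies within 5 bases of the annotated one and no exon of another gene falls in the window. Each window runs from 250 bases before to 50 bases after the start, 5′ to 3′ on the gene's own strand (RefSeq, GRCm38.p6), with CCAAT or its reverse complement ATTGG in capitals. Gm15987 (chr6:128974980-128975279, minus strand) has the largest rise and Gm12758 (chr7:34234127-34234426, plus strand) the largest fall among the 150. Kcnq1ot1 (chr7:143296498-143296797, minus strand) and F630028O10Rik (chrX:96239676-96239975, plus strand) are the 2 most highly counted members that rose, and 1700042O10Rik (chr11:11867873-11868172, plus strand) fell. For Map2k3os only the 165 bases between its start and that of the divergent gene Map2k3 are given (chr11:60931868-60932032, on the strand of Map2k3os).
Gm15987: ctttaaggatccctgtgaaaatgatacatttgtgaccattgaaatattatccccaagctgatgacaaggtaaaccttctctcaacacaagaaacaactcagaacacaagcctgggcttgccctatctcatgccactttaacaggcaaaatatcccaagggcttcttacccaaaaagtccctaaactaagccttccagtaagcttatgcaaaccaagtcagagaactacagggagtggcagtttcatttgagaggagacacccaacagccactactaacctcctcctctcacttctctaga
Kcnq1ot1: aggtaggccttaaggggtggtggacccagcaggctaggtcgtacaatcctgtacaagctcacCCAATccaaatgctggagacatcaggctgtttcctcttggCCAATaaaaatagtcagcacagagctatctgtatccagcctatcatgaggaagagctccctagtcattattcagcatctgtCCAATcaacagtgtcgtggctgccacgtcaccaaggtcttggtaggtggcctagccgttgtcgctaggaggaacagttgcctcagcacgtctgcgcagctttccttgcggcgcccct
F630028O10Rik: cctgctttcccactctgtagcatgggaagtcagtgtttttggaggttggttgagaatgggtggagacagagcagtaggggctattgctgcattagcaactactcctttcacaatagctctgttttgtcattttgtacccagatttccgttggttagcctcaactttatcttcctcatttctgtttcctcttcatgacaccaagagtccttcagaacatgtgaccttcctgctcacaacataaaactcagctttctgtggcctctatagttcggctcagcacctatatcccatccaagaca
Map2k3os: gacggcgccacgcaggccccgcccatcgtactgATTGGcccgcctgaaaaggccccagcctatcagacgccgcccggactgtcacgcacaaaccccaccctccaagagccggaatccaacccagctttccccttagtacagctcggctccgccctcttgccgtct
1700042O10Rik: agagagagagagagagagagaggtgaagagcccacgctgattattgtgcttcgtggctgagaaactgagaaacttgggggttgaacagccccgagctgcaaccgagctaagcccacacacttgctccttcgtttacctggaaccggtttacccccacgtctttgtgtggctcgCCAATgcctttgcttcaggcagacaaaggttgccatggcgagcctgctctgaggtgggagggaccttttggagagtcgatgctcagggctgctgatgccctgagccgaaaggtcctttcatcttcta
Gm12758: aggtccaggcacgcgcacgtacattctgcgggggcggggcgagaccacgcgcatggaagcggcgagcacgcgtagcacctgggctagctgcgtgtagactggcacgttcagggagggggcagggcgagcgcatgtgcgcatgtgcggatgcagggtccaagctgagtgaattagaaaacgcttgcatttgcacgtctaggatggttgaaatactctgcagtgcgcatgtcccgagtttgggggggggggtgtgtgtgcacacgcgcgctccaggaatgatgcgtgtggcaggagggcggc

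The Kcnq1ot1 window holds CCAAT 3 times, beginning 188, 148 and 67 bases before the start, and the other windows hold at most 1 match. The letters are common: CCAAT or ATTGG stands in 37.4% of all 32851 RefSeq promoter windows. Of the 76 members with a window on the annotated strand, 28 hold it (36.8%). It is in 8 of 17 windows of members that rose, 2 of 5 that fell and 18 of 54 that were not called. The GC box (GGGCGG or CCGCCC) is in 48.7% of the members' windows and in 35.7% of all windows. These matches describe the letters in the windows and no more.

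Ybx1 itself, the gene that both hairpins target, was at 1731, 1631, 1607 and 1731 CPM in shNT (counts divided by library sizes scaled with edgeR's TMM factors). It was at 130, 143, 178 and 217 CPM in the knockdown libraries, sh1Ybx1 first, so the groups do not overlap (two-sided exact permutation test, p = 0.0286, the smallest that 4 against 4 libraries allow). Library totals ran from 22779437 to 37549926 counts. The cell label was checked against 15 B lymphoid markers in the table of TPM, the authors' per-length level of a gene: 4 were over 1 TPM in every library, among them Cd79a and Cd79b, and 9, among them Ebf1 and Rag1, were under 1 TPM in every library. Of 14 myeloid markers tested 6 rose, 1 fell and the others were not called (edgeR, both hairpins; 14.8% of all genes rose and 14.2% fell), with overlapping summed levels of 391 to 660.0 CPM in shNT and 432 to 1231 CPM in the knockdown libraries. The defining marker Itgam averaged 0.12 CPM in shNT, 7.32 CPM in sh1Ybx1 and 0.688 CPM in sh2Ybx1, and Tyrobp 4.45, 78.8 and 12.4 CPM. Of 4 mast cell markers tested 2 rose and 1 fell. Of the fibroblast markers, Timp1 and Acta2 were tested and called over both hairpins, but Acta2 averaged 3.47 CPM in shNT, 91.9 CPM in sh1Ybx1 and 3.05 CPM in sh2Ybx1. The part of other cell types in the results below was not tested.

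As a whole the antisense genes kept by the threshold were at a higher level in the knockdown libraries by counts. The threshold uses counts of the same libraries, and 21 members had fewer than 150 counts in shNT and 12 in the knockdown libraries. The sum was not repeated without them, so the test below describes the chosen set and cannot show how much the choice adds. The summed level of all members was 783, 768, 733 and 896 CPM in shNT. In sh1Ybx1 replicates 1 and 2 and sh2Ybx1 replicates 1 and 2 it was 1109, 1046, 1064 and 978 CPM. Every knockdown library lies above every shNT library, and shNT replicate 4 is the highest control. The means were 795 ± 70.5 CPM (SD, n = 4) and 1050 ± 54.2 CPM (SD, n = 4), a ratio of 1.32 (two-sided exact permutation test, p = 0.0286, the smallest possible). As a share of raw counts the members held 0.0736 to 0.0778% in shNT and 0.104 to 0.114% in the knockdown libraries. In the authors' TPM values, which are per length, the sums were 782 ± 71.3 and 838 ± 26.4 TPM (SD, n = 4 each), a ratio of 1.07, and the groups overlap (two-sided exact permutation test, p = 0.2). The 2 scales therefore differ on the size of the summed change, and the cause of that gap was not tested. Fewer cells that express a gene and less of its RNA per cell cannot be told apart in bulk libraries.

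**Figure D1:**
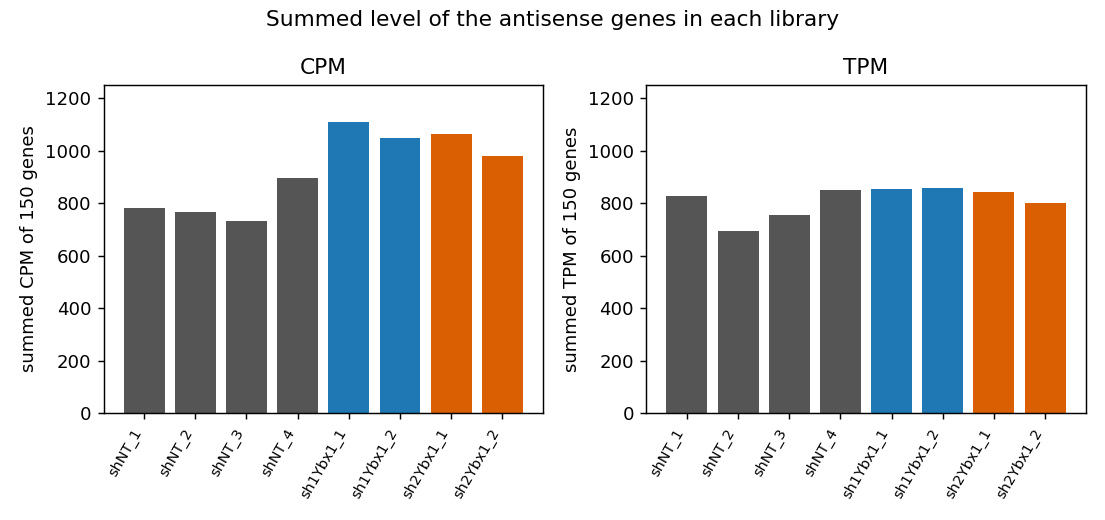
Summed level of the 150 antisense genes in each library (bars), in CPM on the left and in the authors' TPM on the right, for shNT (grey), sh1Ybx1 (blue) and sh2Ybx1 (orange). By CPM the 4 knockdown libraries, 978 to 1109, stand above the 4 shNT libraries, 733 to 896, and by TPM the groups overlap.

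Gene by gene, 43 of the 150 rose and 6 fell in the knockdown libraries of both hairpins together (edgeR quasi-likelihood test over 13552 genes, Benjamini-Hochberg adjusted p under 0.05). Of all genes tested, 28.9% were called, 14.8% higher and 14.2% lower; of the members, 32.7% were called, 28.7% higher and 4.0% lower. The members' median log2 fold change was 0.50, against -0.004 over all genes. Among the called, 38 rose and 3 fell by at least 2-fold. A rise can bring a gene past a threshold on its sum, so the calls were counted again where both groups hold 150 counts: 28 of these 117 genes rose and 4 fell. In 50 members every knockdown library lay above every shNT library (16.6% of all genes tested do so), in 6 every one lay below (15.0% of all genes), and in 94 the groups overlap. Of the 250 antisense genes under the threshold, 249 were tested, 87 rose and 4 fell.

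The size of this count rests on single libraries: it was 82 without shNT replicate 4, 25 without sh1Ybx1 replicate 1, 25 without sh2Ybx1 replicate 1 and 30 without sh2Ybx1 replicate 2. For these fits the share of all genes called is not given. A shift over all genes therefore cannot be told from one in the antisense genes. Of the 49 calls, 24 were made whichever library was left out, and 1 of these 24, Gm12758, is a fall. The authors' deposited table calls 53 members, 48 higher and 5 lower (25.7% of all its genes are called, 14.5% higher), and 47 of the 49 calls are made there with the same sign. With limma on log2(TPM + 1), 3 members were called, while 4.07% of all genes were. On the log2(TPM + 0.1) scale 46 of the 49 had the sign they have in counts. The authors' calls and the TPM come from the same libraries in which the 49 were chosen, so these matches are not independent.

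**Figure D2:**
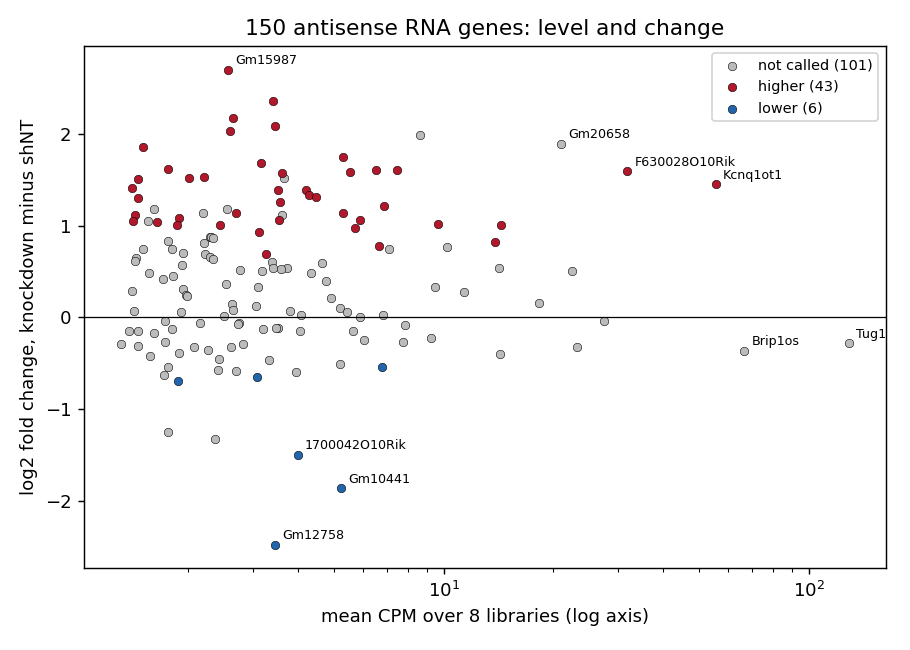
Each point is 1 of the 150 antisense genes: mean CPM over the 8 libraries on a log axis against the log2 fold change, knockdown minus shNT, with genes past the test in red (43 higher) and blue (6 lower). The risers lie at all levels up to Kcnq1ot1, while the 2 most highly counted genes, Tug1 and Brip1os, lie below 0 and were not called.

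Of the members of highest CPM, the ones with a described role are taken first. Tug1, a widely expressed long noncoding RNA essential for male fertility in mice, was counted highest (chr11:3639785-3649673, minus strand), and 4.96% of its exonic bases lie on exons of Morc2a, so reads of the pair may be shared. Its CPM was 135, 149.7, 137 and 144 in shNT, 108 and 97.0 in sh1Ybx1 and 132 and 131 in sh2Ybx1. All knockdown values lie below all shNT values, with those of sh2Ybx1 close to the controls. The log2 fold change over both hairpins was -0.28 ± 0.10 (SE), which did not pass (edgeR adjusted p = 0.0733); for sh1Ybx1 alone it was -0.47 (adjusted p = 0.0404) and for sh2Ybx1 alone -0.10 (adjusted p = 0.595). The difference between the hairpins did not pass the test either (adjusted p = 0.313).

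Brip1os, which overlaps Ints2 on chromosome 11, was at 71.8, 83.9, 102 and 41.8 CPM in shNT and at 64.9, 64.6, 49.2 and 55.7 CPM in the knockdown libraries. The groups overlap, with shNT replicate 4 the lowest of all 8, and the gene was not called (log2 fold change -0.36, edgeR adjusted p = 0.293). Gt(ROSA)26Sor, the locus used in mouse genetics for ubiquitous transgene expression, was at 15.8, 27.8, 15.1 and 15.4 CPM in shNT and 29.9, 25.7, 26.5 and 23.1 CPM in the knockdown libraries. One control, replicate 2, lies among the knockdown values, and the rise of 0.50 on the log2 scale did not pass (adjusted p = 0.123). Per length the order of levels is another one: Rab26os was first at 71.8 TPM in shNT and 68.7 TPM in the knockdown libraries (group means), then Tug1 at 67.4 and 50.4 TPM and Gt(ROSA)26Sor at 31.4 and 29.9 TPM. Rab26os ranged from 44.4 to 91.3 TPM within shNT alone, a spread that spans the mean of Tug1.

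Kcnq1ot1 is the paternally expressed antisense RNA that silences genes of the Kcnq1 imprinted domain, and at 93092 bases it has the longest exonic length of the members (chr7:143203458-143296549, minus strand). It was at 15.2, 46.0, 34.9 and 23.3 CPM in shNT and at 99.8, 64.8, 85.8 and 76.1 CPM in the knockdown libraries. All knockdown libraries are above all controls, and the controls spread widely. The means were 29.8 ± 13.5 and 81.6 ± 14.8 CPM (SD, n = 4 each), and the rise on the log2 scale was 1.45 ± 0.33 (SE, edgeR adjusted p = 0.0143). The call was lost without sh1Ybx1 replicate 1 and without sh2Ybx1 replicate 1. Both hairpins alone were called, at 1.46 for sh1Ybx1 and 1.44 for sh2Ybx1. By TPM its means were 0.45 and 0.96, below the members' median of 2.64 TPM in shNT.

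Nuclear retained long RNAs and mRNAs of the mitochondrial genome are given beside it. Of 11 nuclear retained long RNAs tested, 3 rose and none fell, where 14.8% of all genes rose: Kcnq1ot1 itself, which is a member, Ftx (log2 fold change 1.12), a noncoding RNA of the X-inactivation centre, and Malat1 (2.06), a nuclear speckle RNA. The summed level of all 11 was 700 to 1772 CPM in shNT and 2143 to 2676 CPM in the knockdown libraries. Malat1 alone was at 197, 174, 127 and 703 CPM in shNT, with replicate 4 far above the other controls. Of 8 mitochondrial-genome mRNAs tested, 6 rose and none fell, with overlapping summed levels of 6422 to 21414 CPM in shNT and 20030 to 37127 CPM in the knockdown libraries. The part of RNA composition in the antisense result was not tested.

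The 10 largest rises among called members without overlap come next. Of these, 6 had fewer than 150 raw counts in the 4 shNT libraries and reached the sum of 300 mainly through the knockdown libraries: Gm15987 (77), Gm38155 (140), Gm14286 (116), Gm16754 (126), Gm15601 (78) and Dlx1as (105), as shNT sums. A gene that low in shNT could enter only by being higher in the knockdown libraries. Gm15987 lies within Clec2g, a C-type lectin gene, without a shared exonic base (chr6:128951204-128975029, minus strand). It was at 0.4, 0.531, 0.345 and 1.49 CPM in shNT, 5.49 and 5.1 CPM in sh1Ybx1 and 4.08 and 3.05 CPM in sh2Ybx1. The groups are apart, though shNT replicate 4 stands well above its 3 fellows. The log2 fold change was 2.70 ± 0.46 (SE, edgeR adjusted p = 0.00587), and Clec2g itself changed by 0.31 (adjusted p = 0.373).

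Gm38155 overlaps the G-patch domain gene Gpatch2 without a shared exonic base. It was at 1.57, 1.51, 0.61 and 0.724 CPM in shNT and at 6.09, 4.39, 7.13 and 5.25 CPM in the knockdown libraries. Every knockdown library was above 4 CPM and every control below 2 CPM. The log2 fold change was 2.36 ± 0.36 (SE, adjusted p = 0.004), while that of Gpatch2 was 0.00 (adjusted p = 0.995). Galnt6os, which overlaps the mucin-type glycosyltransferase gene Galnt6, was at 1.94, 0.95, 0.769 and 1.58 CPM in shNT and 6.89, 6.31, 5.03 and 4.19 CPM in the knockdown libraries. Here too the groups are apart, and the log2 fold change was 2.08 ± 0.31 (SE, adjusted p = 0.004). Gm16754, antisense to Keap1, the substrate adaptor that holds the oxidative stress factor Nrf2 in check, was at 1.5, 1.06, 0.61 and 0.905 CPM in shNT. It was at 4.47, 3.89, 4.17 and 4.19 CPM in the knockdown libraries, a narrow band above all controls (log2 fold change 2.03 ± 0.29 SE, adjusted p = 0.00345).

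The other 6 of the 10 largest rises were Gm14286 (2.17), Gm15601 (1.85), Gm20400 (1.74), Gm28192 (1.69), Dlx1as (1.61) and Gm15674 (1.61), as log2 fold changes. All 10 kept their call in every fit that left out 1 library except Gm15601, which lost it without sh1Ybx1 replicate 1. Gm14286 and Dlx1as, named after the homeobox gene Dlx1, rose in counts but did not by TPM. Gm14286 was listed at 0, 3.8, 0 and 3.46 TPM in shNT and at 3.12, 0, 2.69 and 0 TPM in the knockdown libraries, and Dlx1as too was listed at 0 in a library of each group. Per library, Dlx1as was at 1.07, 0.726, 0.795 and 0.77 CPM in shNT and at 2.21, 1.67, 3.34 and 3.51 CPM in the knockdown libraries, so by counts its groups do not overlap.

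Falls were few. Gm12758 (chr7:34234377-34240207, plus strand, overlapping 4931406P16Rik) was at 6.91, 4.67, 3.98 and 7.83 CPM in shNT. It was at 0.809, 0.919, 1.24 and 1.28 CPM in the knockdown libraries, far below every control. The log2 fold change was -2.48 ± 0.28 (SE, edgeR adjusted p = 0.00173), it held for each hairpin alone (-2.75 and -2.21), and the TPM means fell with it from 4.96 to 0.415. Next came 1700042O10Rik, which overlaps the aromatic amino acid decarboxylase gene Ddc without a shared exonic base. It was at 5.31, 4.81, 3.39 and 10.0 CPM in shNT and 1.83, 1.88, 2.39 and 2.24 CPM in the knockdown libraries. The groups are apart, with shNT replicate 4 the highest (log2 fold change -1.50 ± 0.34 SE, adjusted p = 0.0141), but the call was lost without any one of the 4 knockdown libraries.

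Smaller falls were called for Gm10658 (-0.70), Gm13375 (-0.66) and Gm35986 (-0.54), as log2 fold changes, each with every knockdown library below every control. With scaling from protein-coding genes, Gm10658 (adjusted p = 0.0515) and Gm13375 (adjusted p = 0.0604) did not pass, and each of the 3 lost its call without any one of the knockdown libraries. Gm10441, named after its values were seen as the remaining fall, lies in Rbpj, the DNA-binding effector of Notch signalling. It was at 5.54, 5.03, 3.61 and 18.6 CPM in shNT and 1.83, 1.63, 3.63 and 2.13 CPM in the knockdown libraries. One knockdown library lies within the controls, and shNT replicate 4 is more than 3 times the next control (log2 fold change -1.86 ± 0.54 SE, adjusted p = 0.0329).

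**Figure D3:**
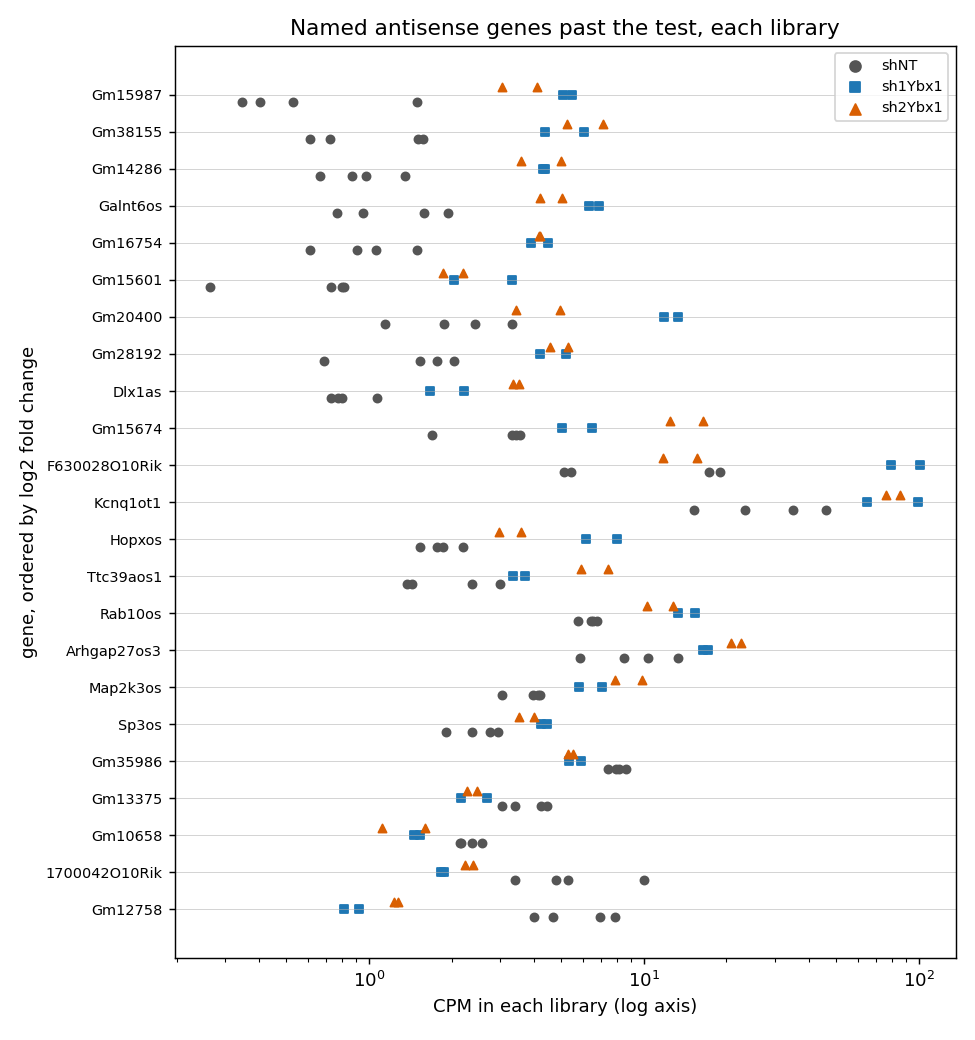
CPM in each library on a log axis for the 23 named antisense genes past the test, ordered by log2 fold change from Gm12758 at the bottom to Gm15987 at the top; grey circles are shNT, blue squares sh1Ybx1 and orange triangles sh2Ybx1. In all rows but that of F630028O10Rik the knockdown libraries lie on 1 side of the controls. For 10 of the rises and 5 falls this was a condition of being named.

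Each hairpin was also set against shNT on its own; these comparisons share the 4 controls. With sh1Ybx1, 34 members rose and 3 fell (19.2% of all genes tested were called, 11.2% higher and 7.96% lower), with a median log2 fold change of 0.37. With sh2Ybx1, 37 rose and 1 fell (19.9% of all genes, 10.4% higher and 9.45% lower), with a median of 0.47. Side by side, 27 members were called with both hairpins, 10 with sh1Ybx1 and not sh2Ybx1, and 11 with sh2Ybx1 and not sh1Ybx1. With 2 libraries a hairpin these counts are fragile: without sh1Ybx1 replicate 1 the first fell to 1 and without replicate 2 to 6, without either sh2Ybx1 library the second fell to 0, and without shNT replicate 4 they were 70 and 71. Leaving out a library of the other hairpin gave 20 in the first and 22 in the second comparison, whichever library it was. The share of all genes called in these fits is not given.

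Between the hairpins no member passed the edgeR test (0 called), while 0.524% of all genes were called, 0.465% higher and 0.059% lower. An unadjusted p under 0.05 was seen in 16 members, and DESeq2 called 7. For the 16 and the 7 the share of all genes is not given. A hairpin difference particular to the members can therefore not be read from them. The genes that follow were chosen after their values were seen, and their levels are a description. F630028O10Rik on chromosome X was at 17.3, 5.45, 5.12 and 19.0 CPM in shNT, 101 and 79.5 CPM in sh1Ybx1 and 11.7 and 15.6 CPM in sh2Ybx1. Only the sh1Ybx1 libraries are above the controls, and the difference between the hairpins was 2.72 ± 0.66 on the log2 scale (SE, adjusted p = 0.105). Its call for both hairpins together (1.59, adjusted p = 0.0318) rests on sh1Ybx1, at 2.95 against 0.23 for sh2Ybx1, and was lost in 6 of the 8 fits without 1 library.

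Gm20400 was at 1.87, 2.43, 1.14 and 3.3 CPM in shNT, 13.4 and 11.8 CPM in sh1Ybx1 and 4.95 and 3.44 CPM in sh2Ybx1 (difference 1.59 ± 0.44 SE, adjusted p = 0.146). Hopxos, named after the homeodomain-only cofactor gene Hopx, was at 2.2, 1.54, 1.78 and 1.86 CPM in shNT, 8.0 and 6.18 CPM in sh1Ybx1 and 3.59 and 2.98 CPM in sh2Ybx1 (difference 1.11 ± 0.28 SE, adjusted p = 0.12). In both genes sh2Ybx1 sits between the controls and sh1Ybx1. Gm15674 had the reverse order, at 3.54, 3.33, 1.7 and 3.44 CPM in shNT, 6.47 and 5.06 CPM in sh1Ybx1 and 16.4 and 12.5 CPM in sh2Ybx1 (difference -1.32 ± 0.37 SE, adjusted p = 0.142).

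**Figure D4:**
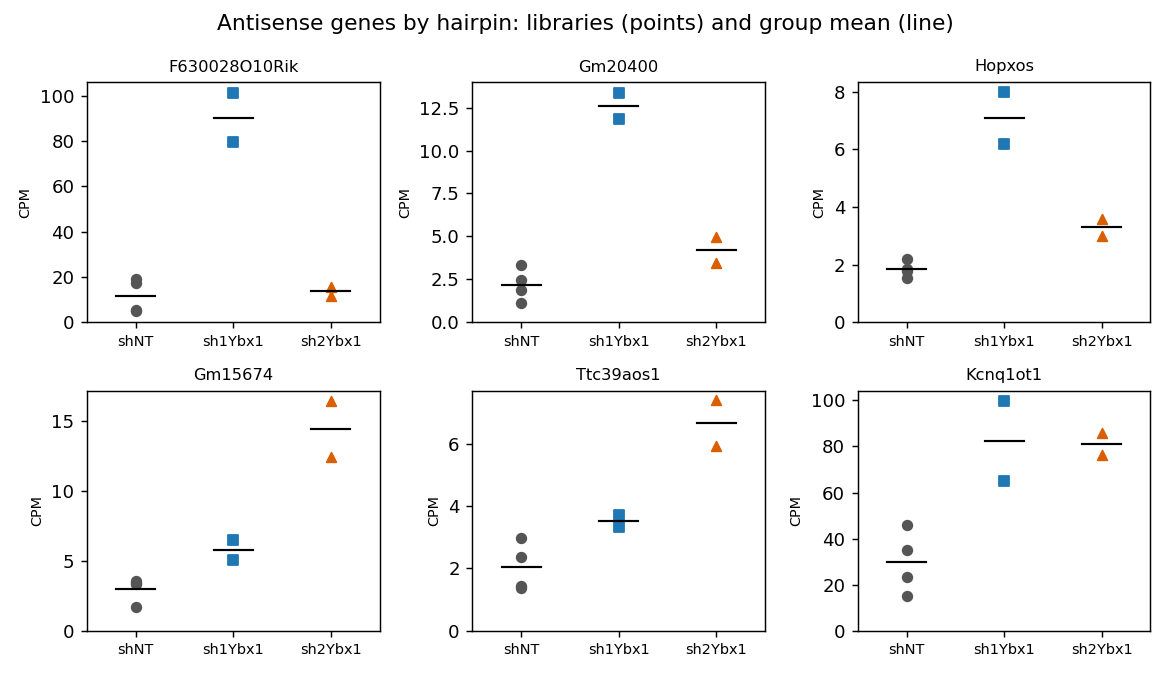
CPM in each library (points) and group means (lines) for 6 antisense genes, by group; each panel has its own axis from 0. F630028O10Rik is high only in sh1Ybx1 (101 and 79.5 CPM), Gm15674 and Ttc39aos1 are highest in sh2Ybx1, and Kcnq1ot1 is alike in both hairpins.

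Members and partner genes were compared next, since their counts may share reads. Of the 34 members with a partner that rose, the partner rose in 5, fell in 2 and was not called in 27. Of the 6 that fell, all have a partner, which fell in 2 and was not called in 4. Over all genes tested 14.8% rose and 14.2% fell, so the rises among the 34 partners lie near that share. The partners' median log2 fold change was -0.04. The log2 ratio of antisense to partner CPM was fitted with limma over all 352 antisense genes with a partner; it was higher in 51 of 130 members and lower in 5, with a median of 0.36. Of all 352 ratios 44.0% were called, 40.9% higher and 3.12% lower, so the members' share lies near that of antisense genes at large. With TPM ratios no member was called.

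Rab10os and Rab10 went in opposite directions. Rab10os (chr12:3235504-3250377, plus strand) overlaps Rab10, a small GTPase of membrane trafficking, with 2.33% of its exonic bases on Rab10 exons. It was at 6.44, 6.73, 5.78 and 6.52 CPM in shNT and 13.4, 15.3, 12.7 and 10.3 CPM in the knockdown libraries. The controls are tight and the groups far apart (log2 fold change 1.01 ± 0.15 SE, edgeR adjusted p = 0.00357, kept whichever library was left out). Rab10 was at 148, 159.9, 197 and 185 CPM in shNT and at 90.5 to 99.7 CPM in the knockdown libraries, which lie below all controls. It fell by 0.85 ± 0.13 on the log2 scale (SE, adjusted p = 0.00392). The log2 ratio of the pair rose by 1.80 (limma adjusted p = 0.000163). That rise follows from the opposite changes by which the pair is shown here and adds no support to them. The other such pair was Gm14091 (1.05, adjusted p = 0.0429) with Knstrn (-0.65, adjusted p = 0.00607), a kinetochore and spindle protein gene; Gm14091 had overlapping groups.

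In 7 pairs both genes were called in the same direction, 5 higher and 2 lower. Gm15674 has 44.6% of its exonic bases on exons of the noncoding gene Gm15675, which rose by 1.59 beside its own 1.61, and their log2 ratio changed by -0.05 (limma adjusted p = 0.852). Gm15601, with 16.6% of its exonic bases on exons of the phospholipase gene Ddhd1, rose by 1.85 and Ddhd1 by 0.60, and their log2 ratio rose by 0.72 (limma adjusted p = 0.0108). Gm16279 and the tubulin acetyltransferase gene Atat1 rose by 1.52 and 1.34, and Dlx1as and Metap1d, a mitochondrial methionine aminopeptidase gene, by 1.61 and 1.05. A430057M04Rik and Comtd1 rose by 1.07 and 0.74. Both falls with a falling partner share no exonic base with it: 1700042O10Rik with Ddc (-1.30) and Gm10441 with Rbpj (-1.18). For the 6 of these pairs other than Gm15601 and Ddhd1 the change in the ratio did not pass the test; whether their reads are shared was not tested.

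**Figure D5:**
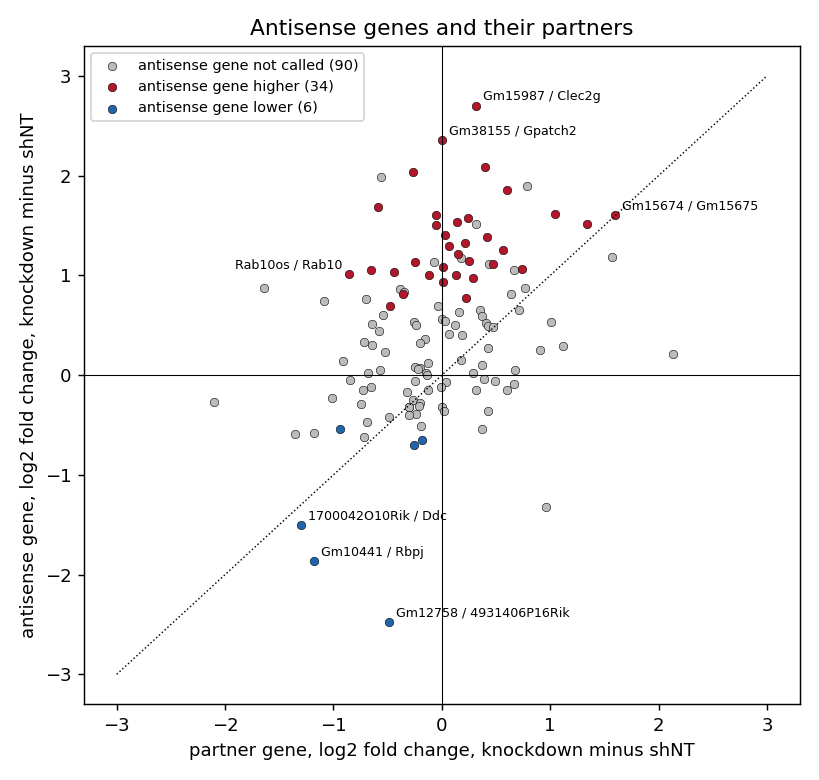
Log2 fold changes, knockdown minus shNT, of 130 antisense genes (vertical) against their opposite-strand partners (horizontal); red, blue and grey mark antisense genes that were higher (34), lower (6) or not called (90), and the dotted line marks equal change. Most red points lie above the line, with Rab10os left of 0 and Gm15674 on the line. Red points were picked by their vertical value, so their place above the line largely follows from that choice.

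Members that start head to head with a partner were described separately. Map2k3os starts 166 bases from Map2k3, a kinase of the p38 pathway, and it is the pair whose intervening bases are printed above, with ATTGG beginning 132 bases before the antisense start. Map2k3os was at 3.97, 4.19, 3.05 and 4.12 CPM in shNT and 5.83, 7.06, 9.82 and 7.84 CPM in the knockdown libraries, without overlap (log2 fold change 0.98 ± 0.18 SE, edgeR adjusted p = 0.00786). Map2k3 averaged 118 ± 34.1 CPM in shNT and 146 ± 22.5 CPM in the knockdown libraries (SD, n = 4 each), which overlap through shNT replicate 4 at 169 CPM (log2 fold change 0.29, edgeR adjusted p = 0.28). Ttc39aos1 starts 468 bases from Ttc39a and rose by 1.25 (adjusted p = 0.0154), a call lost without sh1Ybx1 replicate 1 or sh2Ybx1 replicate 1; Ttc39a changed by 0.56 (adjusted p = 0.099). Gm13375 starts 173 bases from Arhgap21 and fell, as given above. Over the classes, 26 of 92 members with exonic overlap rose and 3 fell. Of 25 that overlap without a shared exonic base 5 rose and 2 fell. Head to head, 3 of 13 rose and 1 fell, and 9 of 18 without a partner rose and none fell. Of all genes tested 14.8% rose and 14.2% fell, and in the classes of 25 and 13 few genes separate the rises from that share. The classes were not tested against each other.

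Of the 20 members whose symbol names a sense gene, the 12 with the highest CPM were followed. Besides those above, Arhgap27os3 averaged 9.53 ± 3.14 CPM in shNT and 19.3 ± 2.95 CPM in the knockdown libraries (SD over 4 libraries). It rose by 1.00 on the log2 scale (edgeR adjusted p = 0.0165), and lost the call without any one of the knockdown libraries. Sp3os, antisense to the GC-box factor gene Sp3, averaged 2.49 ± 0.46 and 4.04 ± 0.391 CPM. It rose by 0.69 (adjusted p = 0.0357), a call that was lost in 7 of 8 fits without 1 library; Sp3 changed by -0.48 (adjusted p = 0.0692). Rab26os (0.33), Zfp335os (0.50), Tspan32os (0.63) and Snhg7os (-1.33) did not pass. Snhg7os was at 4.34, 1.96, 1.43 and 5.75 CPM in shNT and 1.15, 0.919, 1.9 and 1.53 CPM in the knockdown libraries, with overlap (adjusted p = 0.0584). Gm20658 in Vipr2 shows how far the controls can spread: 7.68, 2.74, 1.25 and 24.1 CPM in shNT against 37.5, 38.1, 27.4 and 29.5 CPM in the knockdown libraries, apart but not called (log2 fold change 1.89 ± 0.77 SE, adjusted p = 0.099).

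The splicing table, made by the authors, was searched for the members. The authors' deposited table holds 41 events in 24 members (16.0% of members have an event, against 52.6% of protein-coding genes in the count table). The authors' p was under 0.05 for 2 of the 41, against 7.15% of all events in that table: an alternative last exon of Brip1os (difference in percent spliced in 0.147, p = 0.00855) and one of Gm28857 (0.0671, p = 0.0479). A retained intron of a partner covers member exons in 15 events of 8 members, where 2 had p under 0.05 in the authors' deposited table, against 23.6% of all its retained intron events. The first is an intron of the casein kinase gene Csnk1d (chr11:120963906-120964948), of whose 1043 bases 716 are Gm28192 exon. Its difference in the authors' deposited table was 0.0492, with p = 0.0151. The other is an intron of Trim7 over Gm16170, with a difference of 0.25 and p = 0.0239 in the authors' deposited table. Gm28192 rose in counts from 2.04, 1.54, 0.689 and 1.77 CPM in shNT to 5.24, 4.18, 5.32 and 4.58 CPM, while Csnk1d changed by -0.59 (edgeR adjusted p = 0.056). Reads from a retained Csnk1d intron and from Gm28192 cannot be told apart without strand. These p-values are not adjusted over events.

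Genes of the machinery that makes and removes such RNAs were listed for background. Of 24 nuclear exosome and adaptor genes tested, 1 rose and 5 fell. Ncbp1, a subunit of the nuclear cap-binding complex, went from 186 ± 15.7 to 121 ± 14.7 CPM (SD, n = 4 each; log2 fold change -0.63, edgeR adjusted p = 0.0076), and Zcchc7, an RNA-binding subunit of the TRAMP adaptor, rose by 0.85 (adjusted p = 0.0147). Of 26 cleavage, polyadenylation and termination genes 11 fell and none rose, among them Rprd1b (-1.13), Ints9 (-0.77) and Fip1l1 (-0.73), with a list median of -0.36 on the log2 scale. Of 21 cytoplasmic and nonsense-mediated decay genes 2 rose and 5 fell, the latter including the decapping enzyme Dcp2 (-0.72). None of 21 genes of double-stranded RNA sensing and editing was called. Among all genes tested 14.8% rose and 14.2% fell, and no link between these lists and the antisense genes was tested.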

How the data were processed

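Poly(A)-selected RNA of 8 libraries was sequenced on an Illumina NextSeq, per the labels' protocols. The authors deposited raw counts per gene, TPM per gene and transcript, their own log2 fold changes with p-values, and splicing tables with a difference in percent spliced in, a score per event; STAR, featureCounts, limma and RSEM are named in the submitters' processing notes, with the builds GRCm38 and mm9 and no roles. How strand was handled in counting is not stated in what was available.

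Counts were scaled with TMM and filtered with filterByExpr in edgeR 4.0.16 (R 4.3.3; 13552 of 13588 genes kept), and 3 group means were fitted over all 8 libraries with the quasi-likelihood test. P-values were adjusted over all genes, with a threshold of 0.05. CPM use the TMM library sizes. Ratios used limma 3.58.1 with a pseudocount of 0.5 CPM. DESeq2 1.42.0, other scalings, TPM, blocks and left-out libraries were alternatives. Scripts were tested on simulated data. Partners were taken from GENCODE vM21 and start windows from RefSeq.

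Named genes were Ybx1, the 10 members of highest CPM, up to 10 largest rises and falls among called members whose groups do not overlap, up to 12 members named after a sense gene, their partners, and up to 3 called genes per list. The members and lists were chosen with earlier results of these data known. The depth, 22779437 to 37549926 counts a library, left a median of 64.5 to 89.5 counts per member and library.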

Additional observations from a re-analysis of the deposited data

Results flagged for a closer look

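In 4 named members 1 shNT library lay far from the other 3, by a gap of more than the critical share of the shNT range. Gm15987 was at 1.49 CPM in shNT replicate 4 against 0.345 to 0.531 CPM in the others (gap over range 0.838). Gm15601 was at 0.265 CPM in shNT replicate 3 against 0.726 to 0.815 CPM (0.839), and Gm15674 at 1.70 CPM in the same library against 3.33 to 3.54 CPM (0.885). Gt(ROSA)26Sor was at 27.8 CPM in shNT replicate 2 against 15.1 to 15.8 CPM (0.952). Among all 150 members 14 had such a library, where about 1 in 20 groups of independent normal values would give 7.5. The members share the same 4 shNT libraries, and the share of all genes past this limit is not given. An excess particular to the members can therefore not be read from this count.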

How the results depend on the processing

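Counts of called members are given for both hairpins, sh1Ybx1 and sh2Ybx1 against shNT (49, 37 and 38). They kept within 1.5 times under DESeq2 (58, 48 and 47), RLE scaling, protein-coding scaling and no filter. Leaving out 1 library gave 25 to 82, 1 to 70 and 0 to 71. With limma on log2(TPM + 1) they were 3, 2 and 1, and on log2(TPM + 0.1) 3, 3 and 2. Restricting to the 42 members with 1000 or more counts, against 150 in the full set, gave 16, 11 and 11 called. Fits of only the groups compared gave 17 for sh1Ybx1 and 22 for sh2Ybx1; for both hairpins this is the fit reported. The replicate block of the titles gave 83, 73 and 72, and a block from the numbers in the descriptions, chosen after seeing the data, 86, 64 and 80. No knockdown library shares a title number with shNT replicate 3 or 4, or a description number with shNT replicate 4. Such a library stands alone in its block and adds nothing to the comparison, so the blocked fits also leave out controls. In deviations from the group mean, libraries with the same title number correlated at -0.0118 to 0.197. Those with the same description number correlated at -0.197 to 0.157. Of the title pairs only shNT replicate 1 with sh2Ybx1 replicate 1 was negative. In a group of 2 libraries these deviations mirror each other, so the correlations cannot decide on pairing. The reported fit does not pair libraries. Between the hairpins, where none was called, DESeq2 gave 7, only the groups compared 45, the blocks 16 and 12, and leaving out 1 library 0 to 10. For most of these alternatives the share of all genes called is not given, so the counts describe the members alone.

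The summed level (log2 ratio 0.40) was 0.0995 in TPM (exact permutation p = 0.2). Without 1 library it was 0.364 to 0.463, where the smallest exact permutation p, 0.0571, was reached each time. The 56 ratio calls were 0 with TPM ratios, 66 with the replicate block and 42 to 67 without 1 library. Gm14286 reversed to -0.12 with log2(TPM + 1) and -0.16 with log2(TPM + 0.1), and Dlx1as to -0.075 and -0.10. Why these alternatives differ was not tested. At a median of 64.5 to 89.5 counts a member and library, smaller changes than those called may be missed.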

Other observations

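In the authors' deposited table, 4 exon bins at members were listed with changed use. They were in 4732440D04Rik (log2 fold change of use -1.12), A430057M04Rik (1.83) and 6330562C20Rik (1.10), with a bin labelled Sbsn in a group that holds a member (1.32). The share of all bins or genes so listed is not given, so whether 4 is many or few cannot be read from this count.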
